A study of Mus musculus with 16 samples.

Results

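The lipid-associated macrophage genes are Trem2, Gpnmb, Mmp12, Lgals3, Itgax, Clec7a and Lyz2, a set of 7 genes named for their known place in these cells. The rule holds no measured value, but the set was chosen with earlier results of these data known. All 7 of 7 are among the 752 genes that both deposited tables hold, out of 5205 genes in either table. Liver RNA was sequenced from 16 male C57BL6 mice, 4 mice in each of 4 groups. TSP1F/F mice, labelled WT, carry a floxed thrombospondin 1 gene (Thbs1). TSP1ΔPf4 littermates, labelled KO, carry the same floxed gene and the Pf4-Cre transgene. The study used this driver to delete the gene in the megakaryocyte and platelet lineage, and mentions that a more stringent driver exists. Each genotype was fed the low-fat LF diet or the AMLN diet, rich in fat, fructose and cholesterol and used to induce steatohepatitis, for 32 weeks. The labels give no age, and the study's materials list gives 1 age for both genotypes without saying to which time it refers. Thbs1 is listed for the TSP1F/F mice only, so its deletion was not checked here.

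The table for TSP1F/F mice holds 2558 genes and that for TSP1ΔPf4 mice 3399 genes, each selected by the authors for a difference between the diets. A diet difference of a listed gene is therefore not independent of that selection, and the genotypes could be compared only over genes in both tables, which were selected with the same mice. Library totals ranged from 17127965 to 20700888 in LF-fed TSP1ΔPf4 mice and from 18362810 to 39753019 in AMLN-fed TSP1F/F mice, the narrowest and the widest range of the 4 groups. Values are given as CPM, the count scaled by the library total so that every mouse has the same total.

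Lipid-associated macrophages gather where tissue is overloaded with lipid or dying cells, and in fatty liver they are found around lipid-laden hepatocytes and in fibrotic areas. Many derive from blood monocytes. They sense lipids and cell debris through surface receptors such as TREM2, digest what they take up in lysosomes, and secrete proteases and lectins that act on the surrounding matrix.

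The 7 genes lie apart in the genome, on chromosomes 17 (Trem2), 6 (Gpnmb and Clec7a), 9 (Mmp12), 14 (Lgals3), 7 (Itgax) and 10 (Lyz2). In mm10, Trem2 spans 48346401 to 48354147 and Gpnmb 49036546 to 49070929, both on the forward strand. Mmp12 spans 7344381 to 7369499, Lgals3 47367751 to 47386160 and Itgax 128129547 to 128150657, also on the forward strand. Clec7a spans 129461591 to 129472779 and Lyz2 117277331 to 117282321, on the reverse strand. The files give Clec7a the biotype polymorphic pseudogene and the other 6 genes protein coding, and the coordinates of all 7 are the same in GENCODE.

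The RefSeq promoters of all 7 genes (GRCm38.p6, from 250 bases before to 50 after each start site) were searched on both strands for 3 motifs of factors that act in macrophages. The AP-1 motif TGANTCA was in the promoters of 4 of 7 members, Trem2, Gpnmb, Mmp12 and Itgax, and in 7.81% of 32851 promoters, or 8.97% of genes. Itgax was the member not called between the genotypes on the AMLN diet, so that 3 of the 6 called genes held the motif. The PU.1 core AGGAAGT was in 2 of 7 members (10.7% of genes). The pattern TCANGTG, which covers the MiT factor boxes TCATGTG and TCACGTG but is looser, was in 3 of 7 (16.1% of genes). Of its matches only CACATGA in Mmp12, the reverse complement of TCATGTG, is such a box. Lyz2 held TCAAGTG and Lgals3 TCAGGTG. The 4 windows with the AP-1 match are printed below, chosen after the matches were seen, with the match in capitals, since this was the motif that most members held. They are chr17:48346341-48346400, chr6:49036478-49036537, chr7:128129470-128129549 and chr9:7347274-7347373, all on the forward strand, the last at a second start site of Mmp12.
Trem2: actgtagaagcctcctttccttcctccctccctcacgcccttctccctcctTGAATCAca
Gpnmb: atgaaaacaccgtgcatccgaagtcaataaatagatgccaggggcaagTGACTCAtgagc
Itgax: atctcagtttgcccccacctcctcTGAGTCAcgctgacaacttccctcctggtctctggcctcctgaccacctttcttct
Mmp12: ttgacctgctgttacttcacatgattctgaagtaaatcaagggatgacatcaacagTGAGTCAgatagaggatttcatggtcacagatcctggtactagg
The match began 9 bases before the start site in Trem2 (position -9), at position -56 in Itgax, at -44 in Mmp12 and at 9 in Gpnmb. A match is a description of the letters and not evidence of binding.

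Lyz2 has a close neighbour, Lyz1, which encodes a second lysozyme and was not analysed here. Their promoters are alike, and the 90-base windows at chr10:117282323-117282412 and chr10:117292919-117293008 on the reverse strand are shown with the PU.1 core, read as its complement, in capitals.
Lyz2: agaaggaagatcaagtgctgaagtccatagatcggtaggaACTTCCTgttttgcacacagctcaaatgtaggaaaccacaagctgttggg
Lyz1: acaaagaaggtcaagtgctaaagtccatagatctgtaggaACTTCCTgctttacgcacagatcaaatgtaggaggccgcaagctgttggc
These windows were identical at 77 of 90 bases (85.6%). Of the 31-base words of the Lyz2 transcript, 32.8% were also in Lyz1, while 0 of its 1167 words of 150 bases, the read length, were shared. How the authors assigned reads that match both genes is not given in the sources used here, so the Lyz2 counts are uncertain to that extent.

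Trem2 encodes a lipid-sensing receptor of macrophages. It had 1.36, 1.45, 0.607 and 1.01 CPM in TSP1F/F mice on the LF diet and 19.7, 13.4, 15.4 and 67.6 in those on the AMLN diet. In TSP1ΔPf4 mice it had 0.372, 0.918, 0.993 and 1.27 CPM on the LF diet and 3.17, 2.38, 4.97 and 3.32 on the AMLN diet. The AMLN-fed groups did not overlap with each other or with the LF-fed mice, and 1 AMLN-fed TSP1F/F mouse, replicate 4, lay far above the other 3.

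Clec7a encodes Dectin-1, a receptor for fungal glucans that signals through Syk. In TSP1F/F mice it had 6.0, 11.5, 23.2 and 3.79 CPM on the LF diet and 50.2, 74.3, 90.6 and 478 on the AMLN diet. In TSP1ΔPf4 mice it had 3.03, 3.48, 10.4 and 4.08 and, on the AMLN diet, 10.6, 14.9, 12.6 and 26.5 CPM. The AMLN-fed TSP1ΔPf4 mice were thus within the range of the LF-fed TSP1F/F mice in 3 of 4 cases.

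Itgax encodes the integrin CD11c, a marker of dendritic cells that lipid-associated macrophages also carry. It was the scarcest member on the AMLN diet, with 0, 0.214, 0 and 0.300 CPM in LF-fed and 3.15, 3.41, 9.71 and 8.71 in AMLN-fed TSP1F/F mice. The TSP1ΔPf4 mice had 1.01, 0.483, 0 and 0.637 CPM on the LF diet and 1.97, 2.34, 2.97 and 4.13 on the AMLN diet. Here the AMLN-fed genotypes overlapped, since 1 TSP1ΔPf4 mouse exceeded 2 TSP1F/F mice.

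Gpnmb encodes a transmembrane glycoprotein of lysosomes and phagosomes. LF-fed TSP1F/F livers held 0, 0, 4 and 12 counts, and their values were 0, 0, 0.221 and 0.450 CPM. AMLN-fed TSP1F/F mice had 36.0, 12.3, 47.2 and 59.8 CPM. The TSP1ΔPf4 mice had 0.159, 0.338, 0 and 0.318 CPM on the LF diet and 5.47, 5.67, 12.2 and 5.73 on the AMLN diet, so that the highest of them lay just under the lowest AMLN-fed TSP1F/F mouse.

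Mmp12 encodes macrophage elastase, a secreted protease of elastin and other matrix proteins. It had 0.157, 1.13, 3.64 and 0 CPM in LF-fed and 32.5, 45.8, 85.0 and 177 in AMLN-fed TSP1F/F mice. In TSP1ΔPf4 mice it had 0.531, 0.435, 0.993 and 0.424 CPM on the LF diet and 5.14, 6.74, 6.19 and 7.97 on the AMLN diet. The AMLN-fed TSP1ΔPf4 mice were close to one another, and all 4 were below the lowest AMLN-fed TSP1F/F mouse.

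Lgals3 encodes galectin-3, a secreted lectin that binds galactosides on cells and matrix. TSP1F/F mice had 2.56, 2.63, 5.02 and 2.89 CPM on the LF diet and 21.6, 21.6, 37.0 and 59.2 on the AMLN diet. TSP1ΔPf4 mice had 2.18, 3.14, 7.47 and 4.67 CPM on the LF diet and 9.67, 8.88, 11.4 and 13.05 on the AMLN diet. No AMLN-fed mouse of one genotype fell within the range of the other.

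Lyz2 encodes lysozyme M, which cuts bacterial cell walls and is made by macrophages, monocytes and neutrophils alike. It was the most abundant member, with 35.8, 98.2, 379 and 36.7 CPM in LF-fed and 252, 371, 364 and 1499 in AMLN-fed TSP1F/F mice. In TSP1ΔPf4 mice it had 35.9, 35.6, 87.3 and 46.0 CPM on the LF diet and 109, 79.0, 82.8 and 167 on the AMLN diet. Unlike the other 6 members, Lyz2 overlapped between the diets in both genotypes, and LF-fed TSP1F/F replicate 3 was above all 4 AMLN-fed TSP1ΔPf4 mice.

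**Figure D1:**
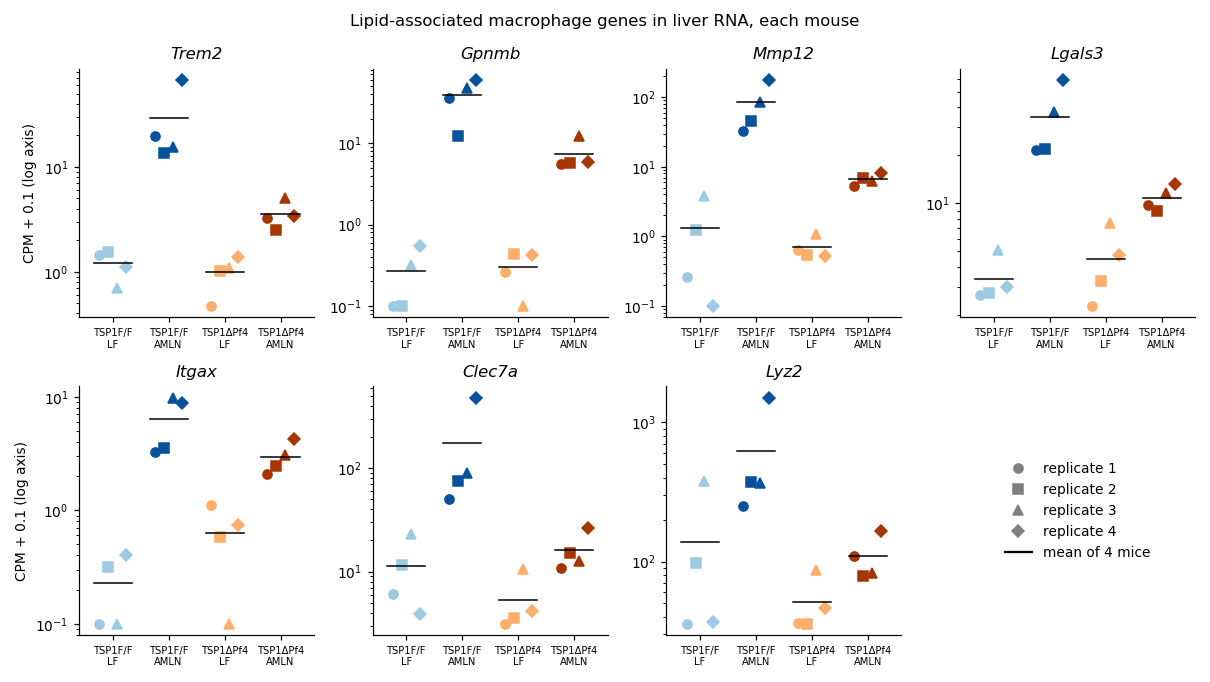
CPM plus 0.1 on a log axis for each of the 7 genes, 1 point per mouse, with symbols for the replicate and a bar for the mean of 4 mice, in LF-fed and AMLN-fed TSP1F/F and TSP1ΔPf4 mice. In 6 of 7 genes all 4 AMLN-fed TSP1ΔPf4 mice lie below all 4 AMLN-fed TSP1F/F mice, and Itgax overlaps.

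The AMLN diet raised 4 of 7 members in TSP1F/F livers and 2 of 7 in TSP1ΔPf4 livers, where a call needs an adjusted p under 0.05 and a log2 fold change beyond 0.25 in size (edgeR quasi-likelihood test, Benjamini-Hochberg). The order of these counts turned with the fit, with 5 and 6 members under TMM, 6 and 7 under DESeq2, 7 and 7 when adjusted over the genes tested only, and 6 and 4 with limma on log2 FPKM. The same rule called 2.39% of the 2096 genes tested as higher in TSP1F/F and 1.46% of 3089 in TSP1ΔPf4 mice. Over all genes tested it called 50 higher and 2 lower in TSP1F/F and 45 higher and 47 lower in TSP1ΔPf4 mice, and another scaling alone, TMM, gave 56 and 6 in TSP1F/F and 160 and 38 in TSP1ΔPf4 mice. DESeq2, which changes the test as well, gave 285 and 456 in TSP1F/F and 1010 and 366 in TSP1ΔPf4 mice. In TSP1F/F mice Gpnmb went up from 0.168 ± 0.215 CPM on the LF diet to 38.8 ± 20.2 (SD, n = 4 each), a log2 fold change of 7.70 (SE 0.90, adjusted p = 0.0138). Trem2 rose by 4.71 on the log2 scale (SE 0.61) and Lgals3 by 3.41 (SE 0.42), both with an adjusted p = 0.0138, and Itgax by 5.47 (SE 0.95, adjusted p = 0.0442). Gpnmb had at most 12 and Itgax at most 8 counts in an LF-fed TSP1F/F mouse. These 2 genes passed the low-count filter only through the AMLN-fed mice, and their fold changes rest on LF values near 0. In bulk liver RNA, fewer cells of a type and less RNA per cell cannot be told apart.

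Mmp12, Clec7a and Lyz2 did not pass in TSP1F/F mice, with log2 fold changes of 6.14 (SE 1.14, adjusted p = 0.0555), 3.96 (SE 0.82, adjusted p = 0.0749) and 2.18 (SE 0.82, adjusted p = 0.372). In these 3 genes, and in Lgals3, LF-fed replicate 3 stood highest of its group. Without that mouse Mmp12 passed (log2 fold change 7.71, adjusted p = 0.0291) and Lyz2 reached 3.45 (adjusted p = 0.0753). Without AMLN replicate 4, in contrast, Lyz2 was at 1.26 (adjusted p = 0.943), Mmp12 at 5.49 (0.0935) and Clec7a at 2.69 (0.101). Leaving out any 1 mouse, Itgax was called in 0 of 8 fits, its adjusted p ranging from 0.0513 (without LF replicate 3) to 0.154 (without AMLN replicate 3). Trem2 and Lgals3 were not called without LF replicate 4 (adjusted p = 0.0695 and 0.0681), nor Lgals3 without AMLN replicate 3 (0.0537), and Gpnmb was called in 8 of 8 fits.

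In TSP1ΔPf4 mice the called members were Gpnmb, which rose from 0.204 ± 0.158 to 7.27 ± 3.30 CPM (log2 fold change 5.09, SE 0.60, adjusted p = 0.0110), and Mmp12, which went from 0.596 ± 0.269 to 6.51 ± 1.18 CPM (SD, n = 4 each, log2 fold change 3.45, SE 0.37, adjusted p = 0.00706). The LF-fed TSP1ΔPf4 mice held 0 to 7 counts of Gpnmb and 8 to 17 of Mmp12, so these fold changes rest on low LF values. Gpnmb passed the low-count filter only through the AMLN-fed mice. The other 5 members had log2 fold changes from 1.10 (Lyz2) to 2.40 (Itgax) with adjusted p from 0.0614 to 0.119. Without LF replicate 4 neither Gpnmb nor Mmp12 was called (adjusted p = 0.0655 and 0.0591), and without LF replicate 3 Lgals3, Clec7a and Lyz2 were called as well. In each genotype, 6 of 7 members did not overlap between the diets, against 36.6% of genes in TSP1F/F and 20.4% in TSP1ΔPf4 mice.

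Between the genotypes on the AMLN diet, 6 of 7 members were lower in TSP1ΔPf4 livers, where 8.46% of the 733 genes tested were called lower and 0.546% higher. Mmp12 had the smallest p of all 733 genes, with 85.1 ± 65.2 CPM in TSP1F/F and 6.51 ± 1.18 in TSP1ΔPf4 mice (SD, n = 4 per genotype), a mean 13.1 times as high in TSP1F/F mice and a log2 fold change of -3.71 (SE 0.50, edgeR adjusted p = 0.00268). Clec7a had 173 ± 204 and 16.2 ± 7.11 CPM (log2 fold change -3.42, SE 0.67, adjusted p = 0.00906). Trem2 had 29.0 ± 25.9 and 3.46 ± 1.09 CPM (-3.06, SE 0.53, adjusted p = 0.00533). These 3 genes differed the most, and Gpnmb, Lyz2 and Lgals3 followed.

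On this diet Lyz2 had 622 ± 588 CPM in TSP1F/F mice and 109 ± 40.5 in TSP1ΔPf4 mice (log2 fold change -2.51, SE 0.54, adjusted p = 0.0162). Gpnmb had 38.8 ± 20.2 and 7.27 ± 3.30 CPM (-2.41, SE 0.46, adjusted p = 0.00850), and Lgals3 34.9 ± 17.8 and 10.8 ± 1.86 CPM (-1.69, SE 0.36, adjusted p = 0.0139). Itgax, with 6.25 ± 3.45 and 2.85 ± 0.948 CPM, was not called (-1.13, SE 0.47, adjusted p = 0.146). The 4 mice per genotype did not overlap in 6 of 7 members, and 12.4% of the genes tested were lower without overlap. The median gene in both tables was itself lower in TSP1ΔPf4 mice, at a log2 fold change of -0.38, with 4 genes called higher and 62 lower. With TMM scaling this shift was -0.10 and the split 11 and 37, and 6 members were called lower.

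AMLN-fed TSP1F/F replicate 4 was the highest mouse of its group in 6 of 7 members, and without it the count stayed at 6 of 7. The log2 fold changes were then smaller, -2.15 (adjusted p = 0.00993) for Clec7a, -1.59 (0.0207) for Lyz2, -2.22 (0.00569) for Trem2 and -3.06 (0.00185) for Mmp12. Without TSP1ΔPf4 replicate 2, Lgals3 and Lyz2 were no longer called (adjusted p = 0.0602 for both) and the count was 4 of 7.

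**Figure D2:**
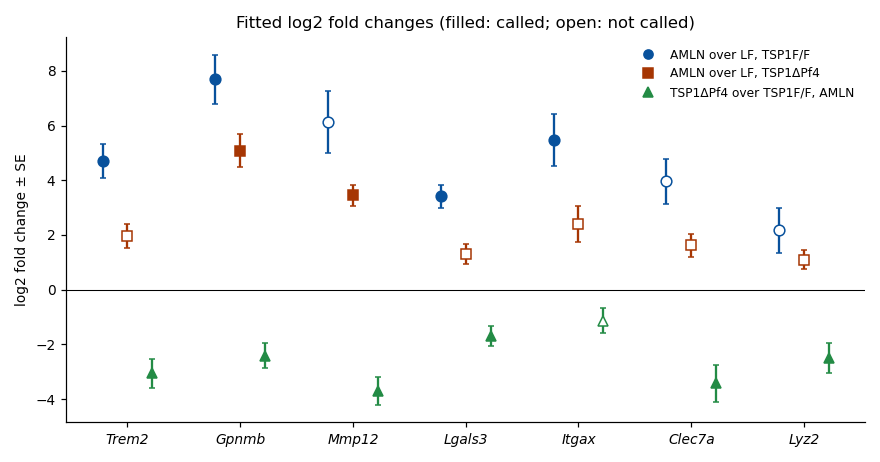
Log2 fold change and standard error of the 7 genes for the diet in TSP1F/F mice, the diet in TSP1ΔPf4 mice and the genotype on the AMLN diet, with 4 mice per group and filled symbols for called genes. The diet points are higher in TSP1F/F than in TSP1ΔPf4 mice for every member, and the genotype values lie between -3.71 for Mmp12 and -1.13 for Itgax.

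On the LF diet, 0 of the 5 members tested differed between the genotypes by edgeR, 0 of them had an unadjusted p under 0.05, and DESeq2 called 0. The log2 fold changes ran from -1.42 (Lyz2, SE 0.70) to 0.41 (Lgals3, SE 0.45), which are wide intervals. Without LF-fed TSP1F/F replicate 3 the value of Lyz2 was -0.15 and that of Clec7a -0.43 instead of -1.08, and over all mice left out in turn Lyz2 ran from -1.81 to -0.15. Gpnmb and Itgax were too scarce on this diet to pass the filter. Over all 640 genes, edgeR called 0 and DESeq2 1, with 25 higher and 19 lower at an unadjusted p under 0.05.

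The interaction term tests whether the diet response differed between the genotypes. Its log2 values were below 0 in 7 of 7 members, from -1.08 (Lyz2) to -3.06 (Itgax), and 6 of 7 had an unadjusted p under 0.05, against 12.8% of 734 genes that were lower at that level. Gpnmb and Itgax, both among these 6, had 0 to 19 counts per LF-fed mouse, so their interaction values rest on LF levels near 0. After adjustment edgeR called 0 of 7 members, and 0.409% of all genes tested as lower. Trem2 (-2.75, SE 0.73) and Lgals3 (-2.11, SE 0.57) came nearest, both with an adjusted p = 0.0558, and DESeq2 called these 2 and limma on log2 FPKM 1, Mmp12.

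Other genes known from lipid-associated macrophages changed less evenly. Of the 9 that both diet tables list, 2 were called lower in AMLN-fed TSP1ΔPf4 mice: Lpl, the lipase of triglyceride-rich lipoproteins (log2 fold change -1.44, adjusted p = 0.0311), and Capg, an actin-capping protein (-1.50, adjusted p = 0.0298). At an unadjusted p under 0.05 by edgeR, 6 of the 9 were lower and 0 higher. Over all 733 genes these counts were 166 and 19. The list's median was -1.09, against -2.51 in the 7 members and -0.38 in all 733 genes. Others were near 0, namely Cd36, a fatty acid transporter (0.07, SE 0.27), the phospholipid-binding Anxa5 (-0.05, SE 0.37) and Pla2g7, a lipoprotein-associated phospholipase (-0.06, SE 0.38). On the diet itself, Lpl and Ctss were called higher in both genotypes.

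The signalling partners of Trem2 and Clec7a were not called on the AMLN diet. Of 6 tested, 0 passed by edgeR and 1, Fcer1g, the Fc receptor gamma chain that carries an activating motif, had an unadjusted p under 0.05 (log2 fold change -0.91, SE 0.30, adjusted p = 0.0854). Syk, the kinase downstream of both receptors, had -0.65 (SE 0.39) and Plcg2, a phospholipase, -0.04 (SE 0.72). Tyrobp, the adaptor of Trem2, was not in both tables and was not compared. Of the relatives of the members, Mmp13, a collagenase, was lower (-2.31, SE 0.51, adjusted p = 0.0182), as was Clec4e, a C-type lectin receptor (-3.22, SE 0.88, adjusted p = 0.0388), while Treml4 was at -0.01 (SE 0.44). Itgb2, the partner chain of the Itgax integrin, had -0.63 (SE 0.33) and was not called.

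General macrophage markers moved less than the members. Of 9 markers listed in both, 1 was called lower in AMLN-fed TSP1ΔPf4 mice, Fcgr1, a high-affinity antibody receptor (log2 fold change -1.60, SE 0.37, adjusted p = 0.0182), and the median was -0.86. At an unadjusted p under 0.05 by edgeR, 4 of the 9 were lower and 0 higher. Csf1r, the receptor for the growth factor that keeps macrophages alive, had a mean of 31.5 CPM in TSP1F/F and 35.6 in TSP1ΔPf4 livers on this diet (0.18, SE 0.31). The markers' summed level was 224 to 444 CPM with the AMLN diet in TSP1F/F livers and 193 to 213 in TSP1ΔPf4 livers, against 38.1 to 121 and 61.0 to 99.2 on the LF diet. Of 3 Kupffer cell markers Cd5l was lower (-1.31, adjusted p = 0.0333), Vsig4 was at -0.41 (SE 0.30), and Cd163 at 1.62 (SE 1.08). Both monocyte markers were lower at an unadjusted p under 0.05 and 0 of 2 were called, with Ccr2, the monocyte chemokine receptor, at -1.18 (SE 0.49) and Chil3 at -2.67 (SE 0.96).

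Of 5 stellate cell markers 1 was called, the collagen gene Col3a1 (-1.72, adjusted p = 0.0182), and of 4 hepatocyte markers 0. The summed hepatocyte markers were 2855 to 6154 CPM (TSP1F/F) and 4577 to 5979 CPM (TSP1ΔPf4) on the AMLN diet. On the LF diet they were 6806 to 9131 and 7431 to 8745 CPM, above every AMLN-fed mouse. The sum of these 4 markers thus moved with the diet opposite to the members. Of the 12 hepatocyte markers on the list, only 5 (TSP1F/F) and 6 (TSP1ΔPf4) were among the genes selected for a diet difference. At an unadjusted p under 0.05 by edgeR, AMLN-fed TSP1F/F mice had 5 of 5 lower. Over all 2096 genes tested there, 569 were lower and 1111 higher. AMLN-fed TSP1ΔPf4 mice had 5 of 6 lower and 1 higher, against 1604 lower and 1045 higher of 3089 genes. Because of that selection, these counts cannot show how often hepatocyte markers respond to the diet. The part of hepatocyte markers in the diet differences of the members was not tested. Markers of neutrophils, dendritic cells, B cells, cholangiocytes and platelets had 0 genes in both tables, so that for Lyz2, which neutrophils also make, and Itgax, which dendritic cells also make, the part of those cells was not tested.

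**Figure D3:**
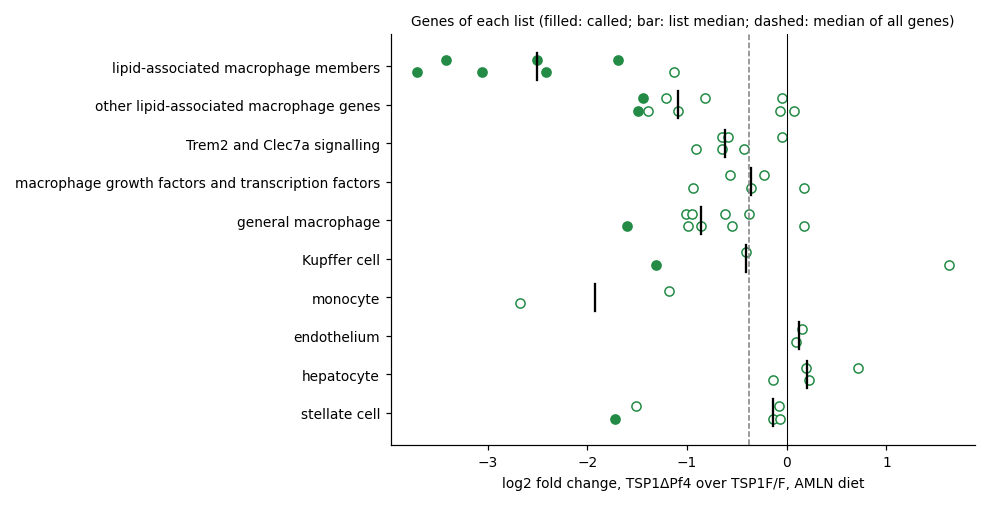
Log2 fold change between AMLN-fed TSP1ΔPf4 and TSP1F/F mice for the genes of 10 lists, 1 point per gene, filled where called, with a bar at each list's median and a dashed line at the median of all genes. The 7 members have a median of -2.51, general macrophage markers -0.86 and hepatocyte markers 0.21.

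The members were also set against the summed CPM of the 9 general macrophage markers, a scaling chosen after the data were seen. On the AMLN diet Mmp12 was 10.95, 20.5, 27.6 and 39.9% of that sum in TSP1F/F mice and, in TSP1ΔPf4 mice, 2.66, 3.29, 3.14 and 3.75%. Trem2 was 6.64, 5.97, 5.005 and 15.2% against 1.64, 1.16, 2.52 and 1.56%, and again the genotypes did not overlap. On this scale 5 of 7 members did not overlap between the AMLN-fed genotypes. The share of all genes without overlap on this scale was not computed. Gpnmb overlapped, with up to 6.197% in TSP1ΔPf4 and from 5.47% in TSP1F/F mice, and so did Itgax, with up to 1.94% and from 1.06%. Lgals3 was 10.6 ± 2.67% (TSP1F/F) and 5.32 ± 0.812% (TSP1ΔPf4) on the AMLN diet (SD, n = 4), and the latter was close to the 5.20 ± 1.77% of LF-fed TSP1ΔPf4 mice.

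With libraries scaled by these markers, 5 of 7 members were called lower in AMLN-fed TSP1ΔPf4 mice, and 3.27% of 733 genes. They were Mmp12 (log2 fold change -2.95, adjusted p = 0.00104), Clec7a (-2.57, adjusted p = 0.00822), Trem2 (-2.25, adjusted p = 0.00545), Lyz2 (-1.71, adjusted p = 0.0354) and Gpnmb (-1.68, adjusted p = 0.0219). Lgals3 (-0.99, adjusted p = 0.0978) and Itgax (-0.46, adjusted p = 0.586) were not called.

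**Figure D4:**
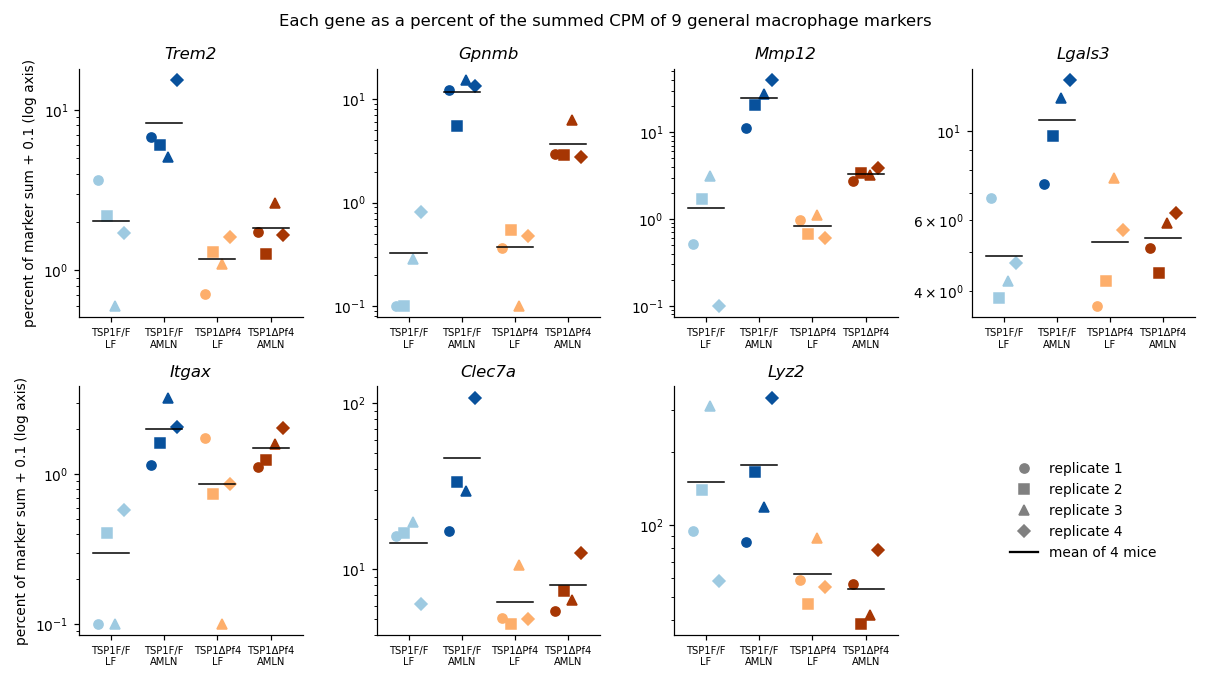
Each of the 7 genes as a percent of the summed CPM of 9 general macrophage markers, plus 0.1, on a log axis, 1 point per mouse with a bar for the mean of 4 mice. Mmp12 lies between 10.95 and 39.9% for TSP1F/F and between 2.66 and 3.75% for TSP1ΔPf4 mice on the AMLN diet.

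The mice of a group did not rank alike in every member. AMLN-fed TSP1F/F replicate 4 was highest in all members but Itgax, and AMLN-fed TSP1ΔPf4 replicate 4 was highest in 5 of 7, replicate 3 in Trem2 and Gpnmb. Replicate 3 was the highest LF-fed mouse in both genotypes for the same 4 members, Mmp12, Lgals3, Clec7a and Lyz2, yet in TSP1F/F it was the lowest for Trem2. Its summed general macrophage markers were also the highest of the LF-fed mice in each genotype, 121 CPM in TSP1F/F and 99.2 in TSP1ΔPf4, and their part in these levels was not tested.

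Among the 752 genes, the profile over all 16 mice (log2 of CPM plus 0.5, each gene centred on its mean) was compared with the mean profile of the 7 members by the root mean square difference, whose median was 1.47. The genes nearest to it, members aside, were Lpl (0.514), the ubiquitin-like Ubd (0.545), the myeloid receptor Cd300lb (0.655), the eosinophil-associated ribonuclease Ear2 (0.677) and Cd5l (0.681), a secreted macrophage protein. The members themselves ranked from 1 (Trem2, 0.503) to 77 (Gpnmb, 0.970), a closeness partly built in, since each is part of that mean profile. The 5 genes other than members were chosen for a profile that includes the AMLN-fed mice of both genotypes, so their levels are a description only. Lpl, for instance, had a mean of 176 CPM in TSP1F/F and 64.8 in TSP1ΔPf4 livers on the AMLN diet, and 11.6 and 15.1 on the LF diet.

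Levels of different genes were compared per length, as FPKM with the deposited gene lengths. In AMLN-fed TSP1F/F mice the order of the means was Lyz2 (472 FPKM), Clec7a (65.7), Lgals3 (18.8), Mmp12 (11.8), Gpnmb (5.96), Trem2 (5.87) and Itgax (1.30). In that group the range of Lyz2 lay wholly above that of Clec7a, and that of Trem2 above that of Itgax. The ranges of the neighbours between them overlapped. Within each mouse of the group, however, Clec7a was above Lgals3 and Lgals3 above Mmp12. In AMLN-fed TSP1ΔPf4 mice the order was Lyz2 (83.2 FPKM), Clec7a (6.12), Lgals3 (5.79), Gpnmb (1.12), Mmp12 (0.899), Trem2 (0.700) and Itgax (0.594), with Lyz2 apart from Clec7a and Lgals3 apart from Gpnmb. The ranges of Clec7a and Lgals3 overlapped in both genotypes. So did those of Mmp12 and Gpnmb, whose means stood in the opposite order in the TSP1ΔPf4 mice.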

How the data were processed

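Liver RNA of 16 mice was sequenced, and the authors deposited 2 tables, for the diets in TSP1F/F and in TSP1ΔPf4 mice. The counts per gene, the FPKM values and the normalised signal values (counts divided by a size factor per library) were made by the authors. Per the study's methods reads were aligned to mm10 with STAR, whereas the submitters' processing notes name HISAT2 and DESeq2. The counting program, annotation release and strand setting are not given in the sources used here. The tables also hold the authors' log2 fold changes and p-values, which are not printed. The p-value columns were read only to learn how genes had been selected and how many genes the authors had adjusted over. All 48 columns of per-mouse values were matched to a mouse.

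Library totals were computed from counts, lengths and FPKM. Genes passing filterByExpr were tested with edgeR 4.0.16 (quasi-likelihood test, totals as library size) in R 4.3.3, with limma 3.58.1 and DESeq2 1.42.0 as alternatives. Benjamini-Hochberg adjustment covered 16784 genes (diet, TSP1F/F), 13927 (diet, TSP1ΔPf4) or the genes tested (genotype and interaction). Because only selected genes were at hand, the dispersion and so each p-value rest on them. The labels do not say that mice of a group came from separate litters or cages, so p-values measure the spread between these mice. The diet and genotype tests were run on simulated counts with 200 genes changed by a fold of 8. They recovered 177 (diet, TSP1F/F) to 200 (diet, TSP1ΔPf4) of these genes, with 5 to 9 false calls. The simulation adjusted over the genes tested only and changed no scarce genes. It therefore does not cover the wider adjustment used for the diet or members near 0 counts, and the interaction was not simulated. Promoter sequences are RefSeq's for GRCm38.p6, and protein sequences were not used here.

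The members, lists and tests were chosen with earlier results of these data known. The genes named were the 7 members, the called genes of each list or up to 4 with the smallest p, up to 4 with the largest change, and the 5 genes nearest to the members' mean profile. Alternatives were other scalings, filters, tools and thresholds, a fit with the replicate number as a block, 1 fit of all mice, and each mouse left out. Scaling by macrophage markers and DESeq2 with the authors' size factors were added after seeing the data.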

Additional observations from a re-analysis of the deposited data

Results flagged for a closer look

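Of 28 sets of 4 mice (7 genes in 4 groups), 6 held a mouse far from the other 3, its gap to the nearest divided by the range exceeding Dixon's critical value. Chance gives about 1 in 20 such sets. Of the 6, 3 belonged to AMLN-fed TSP1F/F replicate 4, with 67.6 CPM of Trem2, 478 of Clec7a and 1499 of Lyz2, and without this mouse 6 of 7 members were still called lower in AMLN-fed TSP1ΔPf4 mice. The others were AMLN-fed TSP1ΔPf4 replicate 3 with 12.2 CPM of Gpnmb, LF-fed TSP1F/F replicate 3 with 5.02 CPM of Lgals3, and LF-fed TSP1ΔPf4 replicate 3 with 10.4 CPM of Clec7a.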

How the results depend on the processing

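The count of members lower in AMLN-fed TSP1ΔPf4 mice was 6 of 7 under every scaling, filter, tool and threshold tried except scaling by macrophage markers (5), and 4 to 6 with 1 mouse left out. The counts for the diet were less stable. In TSP1F/F mice 4 members were called, and 7 when adjusted over the genes tested only, 2 when scaled by macrophage markers, and 1 (without LF replicate 4) to 4 with 1 mouse left out. In TSP1ΔPf4 mice 2 were called, and 6 with TMM, 7 with DESeq2, 7 with DESeq2 and the authors' size factors, 4 with limma on log2 FPKM, 7 adjusted over the genes tested only, and 0 (without LF replicate 4) to 5 (without LF replicate 3) with 1 mouse left out. The interaction gave 0 members, 2 with DESeq2 under either size factors, 1 with limma, and 0 to 2 with 1 mouse left out (2 without AMLN TSP1F/F replicate 2 or LF TSP1ΔPf4 replicate 1). The cause was not tested.

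The directions that reversed were those of genes not called. The diet's log2 fold change of Lyz2 in TSP1ΔPf4 mice was -0.20 scaled by macrophage markers, and Mmp12 between the LF-fed genotypes was 0.17 with the replicate block and -1.45 to 0.50 with 1 mouse left out. Over all genes tested, the diet in TSP1F/F mice gave 52 calls, and 83 with no filter, 204 with limma, 741 with DESeq2, 563 with DESeq2 and the authors' size factors, 812 scaled by macrophage markers, 1124 adjusted over the genes tested only, and 2 to 61 with 1 mouse left out. The diet in TSP1ΔPf4 mice gave 92, and in the same order without the filter setting 208, 1376, 1073, 1977, 2187 and 1 to 182, with 198 under TMM. The genotype on the AMLN diet gave 66, and 111 with DESeq2 and the authors' size factors, 35 scaled by macrophage markers and 22 to 84 with 1 mouse left out. The interaction gave 3, and 8 with the authors' size factors or a mean count filter, 15 with TMM or limma, 44 and 58 with the DESeq2 fits, and 0 to 24 with 1 mouse left out.

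Same-numbered mice were not taken as pairs, since in each comparison at least 1 pair's correlation of deviations from the group means was under 0.1 (on the AMLN diet 0.093 to 0.436, with 3 of 4 mice nearest their own number). With the replicate block, 3 members were called for the diet in TSP1F/F, 2 in TSP1ΔPf4, 6 for the genotype on the AMLN diet, 0 on the LF diet and 0 for the interaction, and the genes called were 10, 4, 116, 0 and 0. On the LF diet Gpnmb and Itgax had 0 to 19 counts per mouse and did not pass the filter for the genotype comparison.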
